A study of Mus musculus with 6 samples.

Results

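The 31 genes described here are interferon-stimulated genes, whose transcription is switched on when a cell senses type I interferon. They were taken by symbol from a list chosen with earlier results of these data known, so counts over the list are description only. All 31 were found among the 24421 gene symbols of the count files. All 31 also passed the filter on low counts, which kept 11144 genes. RNA was sequenced from endothelial cells sorted by flow cytometry from B16F0 tumours, a transplantable mouse melanoma grown under the skin of C57BL/6 mice for 17 days. One group of mice was given 15C4, an antibody that blocks the secreted glycoprotein LRG1, and the other was given IgG as the control, both at 50 mg/kg every 3 days. Each group held 3 libraries, named 15C4 1 to 3 and IgG 1 to 3. Every mouse carried the same tumour line, and no genotype other than the strain, no age and no sort gate is given in the labels. Nothing in the labels ties a library to its own mouse, so each p-value rests on the spread between libraries, which may be partly technical.

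Type I interferons are secreted proteins that bind the receptor IFNAR on nearly all cells. The receptor's kinases JAK1 and TYK2 set off a complex that holds STAT2 and IRF9 and binds the interferon-stimulated response element (ISRE) in target promoters. Type II interferon, interferon gamma, acts at the gamma-activated site (GAS), and many of the 31 genes respond to both, so the list cannot by itself tell the 2 types apart. In tumour vessels the pathway is known for restraining vessel growth and for helping to recruit lymphocytes.

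Promoter sequence was the feature of the list that its choice by symbol did not use directly. RefSeq windows (GRCm38.p6, from 250 bases before to 50 bases after a transcription start) were at hand for 24 of the 31 genes, in 33 windows. The ISRE, searched as GAAANNGAAA on both strands with overlapping matches kept, was in 10 of the 33 windows (30.3%), against 3.44% of all 32851 windows. The GAS, searched as TTCNNNGAA, which is the same on both strands, was in 8 of the 33 windows (24.2%), against 8.30% of all windows. The 8 genes with an ISRE match before the start are shown because they carry the element that names the family. Each stretch is written 5′ to 3′ on the gene's strand, with the matches in capitals.
Isg15 (chr4:156200860-156200911, minus strand): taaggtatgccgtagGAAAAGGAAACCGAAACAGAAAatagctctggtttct
Oas1a (chr5:120907526-120907560, minus strand): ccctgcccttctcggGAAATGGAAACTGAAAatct
Trim30a (chr7:104465205-104465244, minus strand): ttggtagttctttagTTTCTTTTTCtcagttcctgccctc
Bst2 (chr8:71537572-71537617, minus strand): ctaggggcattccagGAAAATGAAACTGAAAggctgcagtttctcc
Stat2 (chr10:128270261-128270300, plus strand): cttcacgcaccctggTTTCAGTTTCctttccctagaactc
Rsad2 (chr12:26456548-26456587, minus strand): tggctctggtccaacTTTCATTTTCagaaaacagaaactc
Ifit3 (chr19:34583358-34583431, plus strand): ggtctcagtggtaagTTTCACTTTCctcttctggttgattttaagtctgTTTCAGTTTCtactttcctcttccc
Ifit1 (chr19:34640770-34640828, plus strand): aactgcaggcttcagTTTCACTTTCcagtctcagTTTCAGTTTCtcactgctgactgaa

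Isg15 held 3 overlapping matches, the first starting 78 bases before the start, and Oas1a held 2 that began 20 bases before it. Ifit1 and Ifit3 held 2 separate matches each, while Stat2, Rsad2 and Trim30a held 1. Eif2ak2 had its match after the start. Trim30a also had a match just after the start of a second window, and whether it is the same site was not checked. A match is a run of letters and not a measured binding site, and the other 15 genes with a window can hold elements that differ from these letters or lie elsewhere.

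**Figure D1:**
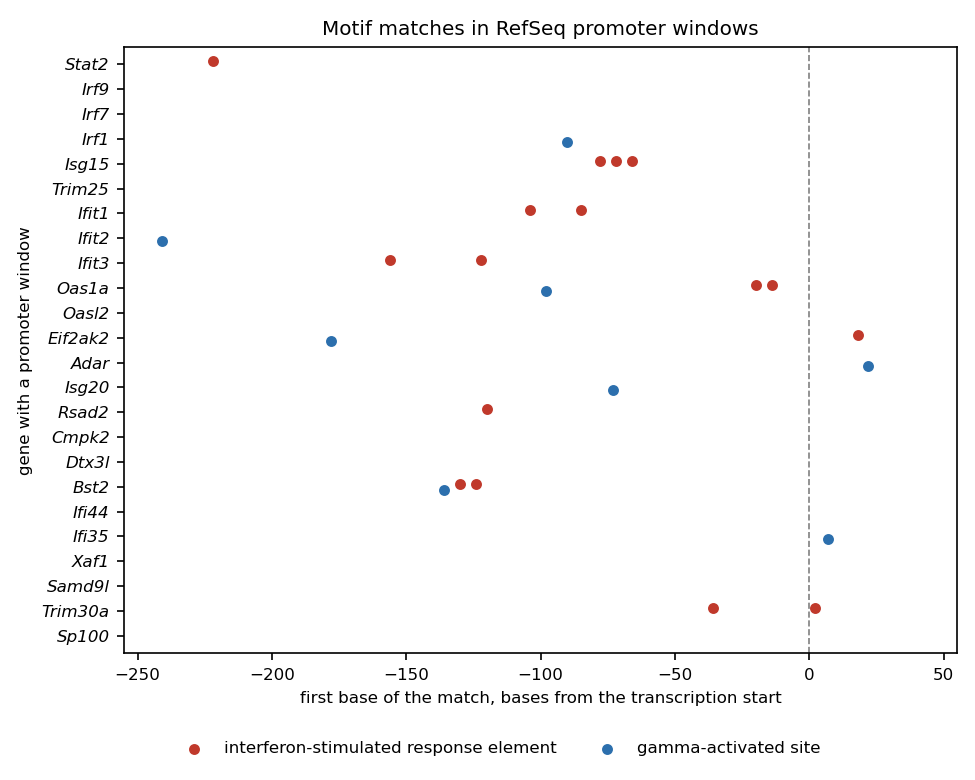
First base of each ISRE match (red) and GAS match (blue) in the promoter windows of the 24 genes with a window, in bases from the transcription start (dashed line). The 3 matches of Isg15 lie together before the start, and Bst2, Oas1a and Eif2ak2 hold both motifs.

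Library totals ranged from 5175600 counts in IgG 1 to 19572202 in 15C4 2. Levels are CPM, the counts of a gene scaled to the total of its library. Against the label of endothelial cells, the 9 melanocyte markers, led by Dct, summed to between 23475 and 28719 CPM in every library. The 12 pan-endothelial markers had 138 CPM in IgG 3 and between 1063 and 2446 CPM in the others. For the 7 lymphatic endothelial markers IgG 2 had 1168 CPM, and no other library had more than 63.8 CPM. For the 12 T and NK cell markers IgG 1 had 595 CPM, or 471 CPM without Ccl5. 15C4 1 had 220 CPM, of which 214 CPM was Ccl5 alone and 6.79 CPM the other 11 markers, and the rest had at most 21.7 CPM. Fibroblast markers had 152 CPM in 15C4 3, of which 151 CPM was Lum alone and 0.939 CPM the other 5 markers. In IgG 1 they had 69.0 CPM, or 46.6 CPM without Lum, against at most 3.22 CPM in the remaining libraries. Macrophage and monocyte markers summed to at most 52.5 CPM, and those of dendritic cells, plasmacytoid cells included, to at most 10.6 CPM. Which of these cells carried the transcripts described here cannot be told apart, nor can fewer cells of a type and less RNA per cell. 15C4 3 had 1537 tested genes at 0, against 31 to 507 in the other libraries.

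The comparison of 15C4 with IgG asks how the antibody changes gene expression in tumour endothelium. None of the 31 genes passed the test (edgeR quasi-likelihood test, adjusted p = 1.00 for each), and the same test called 0% of all tested genes. The fitted values lay mostly on the 15C4 side: 25 of the 31 genes (80.6%) had a log2 fold change of 15C4 over IgG above 0, against 50.7% of all tested genes. The median log2 fold change was 0.41 for the list and 0.01 for all tested genes. At an unadjusted p under 0.05 there was 1 gene, Samd9l, where the test put 2.58% of all tested genes. The 15C4 libraries lay wholly above the IgG libraries for 2 genes, Bst2 and Samd9l, where 3.58% of all tested genes did so, and wholly below for 0 genes, where 5.92% did so. These 2 counts are on CPM scaled by edgeR's TMM factors. With DESeq2's size factors, Usp18 and Adar were separated as well, 4 genes in all, where 3.83% of all tested genes had 15C4 wholly higher.

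**Figure D2:**
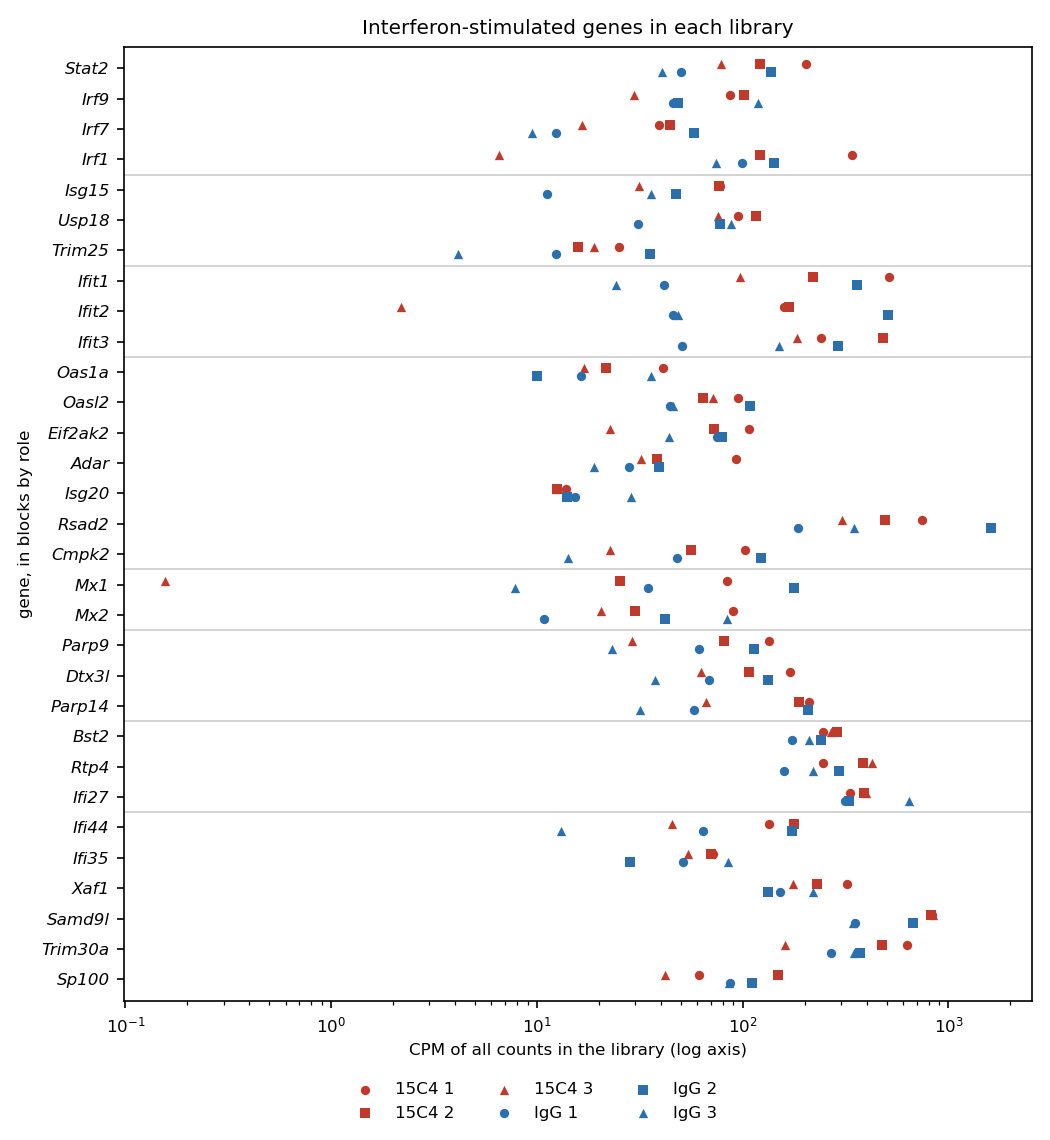
CPM of all counts (log axis) of each of the 31 genes in the 3 15C4 libraries (red) and the 3 IgG libraries (blue), in blocks by role; circles, squares and triangles are libraries 1, 2 and 3. The groups overlap for most genes, and 15C4 3 lies far to the left for Irf1, Ifit2 and Mx1 while it leads for Rtp4 and Samd9l.

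The size of these fitted values depended on single libraries. Without IgG 2, the median log2 fold change of the list was 0.97 and 27 genes lay above 0. Without 15C4 1 it was 0.22 with 21 genes above 0. IgG 2 was also the library with the lymphatic endothelial markers, led by Mmrn1 at 578 CPM against at most 0.193 CPM in the other libraries, with 1 of the 7 markers at 0 there and 3 to 5 of them at 0 in each of the others. The part of these cells in the result was not tested.

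**Figure D3:**
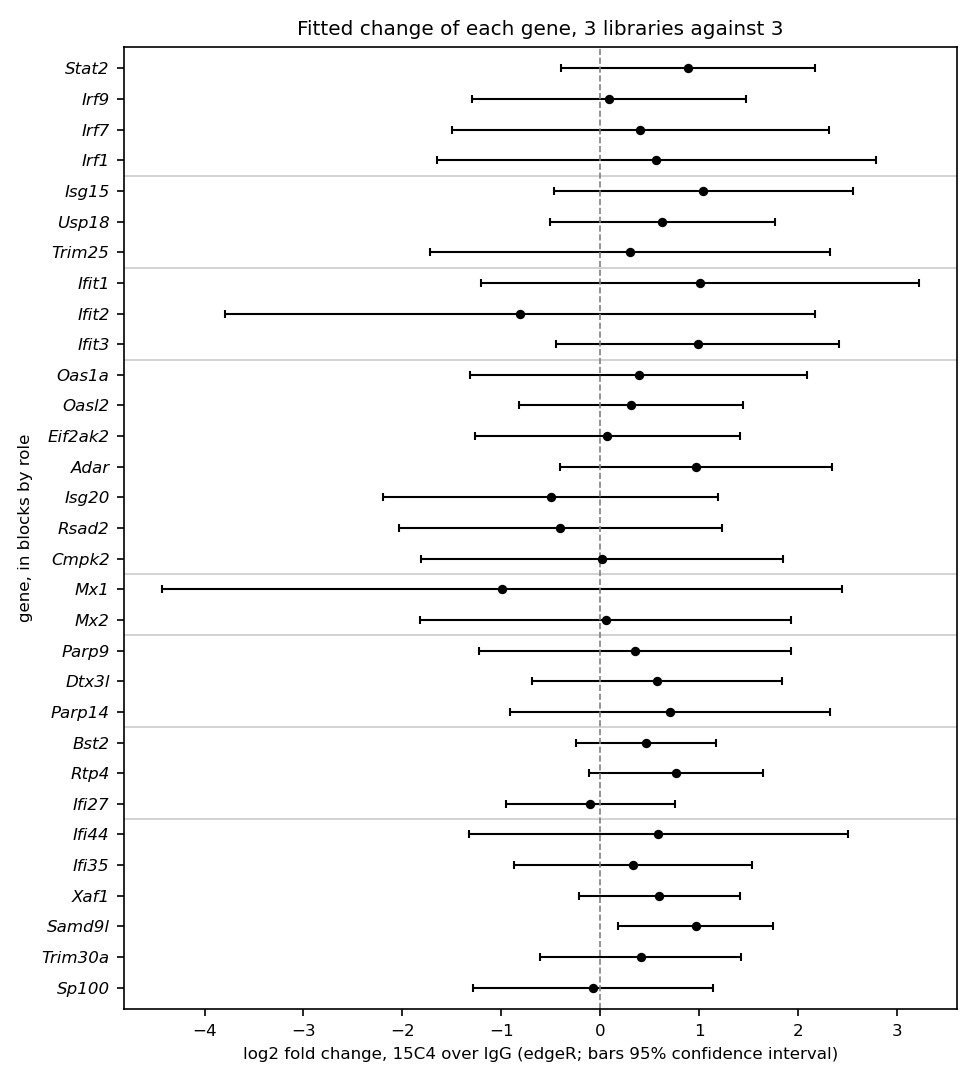
Log2 fold change of 15C4 over IgG for each gene (points) with its unadjusted 95% confidence interval (bars), from 3 libraries against 3. The interval of Samd9l, from 0.18 to 1.75, is the 1 that does not include 0, and those of Mx1 and Ifit2 are the widest.

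Samd9l encodes a cytoplasmic protein that restricts viruses and slows translation. It lay at 835, 823 and 840 CPM in 15C4 1, 2 and 3 and at 350, 674 and 345 CPM in IgG 1, 2 and 3. In CPM of all counts the 15C4 libraries were nearly level, and all exceeded the highest IgG library, IgG 2. The TMM factors of 15C4 1, 2 and 3 were 1.07, 0.955 and 0.894. After TMM scaling the 15C4 libraries were therefore less level, with 15C4 3 highest, and the groups still did not overlap. Its log2 fold change was 0.97 (SE 0.34, unadjusted p = 0.0214, adjusted p = 1.00 by edgeR), with a 95% interval from 0.18 to 1.75. It was between 0.81 and 1.34 with each library left out in turn.

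Among the proteins at membranes and in protein traffic, Bst2, also called tetherin, holds budding viruses at the cell surface. It lay at 245, 287 and 269 CPM in the 15C4 libraries and at 174, 240 and 209 CPM in the IgG libraries. The groups did not overlap, but 15C4 1 and IgG 2 differed by less than the SD of either group, and the log2 fold change was 0.46 (SE 0.31, 95% interval -0.25 to 1.17). Rtp4, a chaperone of receptors on their way to the cell surface, lay at 247, 386 and 424 CPM against 159, 295 and 220 CPM. IgG 2 exceeded 15C4 1, so the groups overlapped, and the log2 fold change was 0.77 (SE 0.39). Gm45338, a gene on the same strand, covers 13.9% of Rtp4's exon length, so a part of its reads may be shared. Ifi27, a mitochondrial protein linked to cell death, lay at 334, 389 and 397 CPM against 315, 327 and 641 CPM. IgG 3 held its highest value, and the log2 fold change was -0.10 (SE 0.37).

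All 4 transcription factors of the list had a fitted value above 0, and none passed. Stat2 and Irf9, partners in the complex that binds the ISRE, did not have the same order of libraries. Stat2 lay at 203, 121 and 78.8 CPM in the 15C4 libraries and at 50.04, 137 and 40.4 CPM in the IgG libraries, with a log2 fold change of 0.89 (SE 0.56). Irf9 lay at 87.0, 101 and 29.6 CPM against 45.6, 48.6 and 119 CPM, with its highest value in IgG 3, where Stat2 was lowest (0.09, SE 0.61). Irf7, which amplifies interferon production, lay at 39.2, 44.1 and 16.6 CPM against 12.4, 57.9 and 9.51 CPM (0.41, SE 0.83). Irf1, which responds strongly to interferon gamma, spanned 51.7-fold. It lay at 340, 121 and 6.57 CPM in the 15C4 libraries and at 99.5, 142 and 73.8 CPM in the IgG libraries, so that 15C4 held both its highest and its lowest value (0.57, SE 0.97). Without 15C4 1 the fitted value of Irf1 was -0.61, and without 15C4 3 it was 1.15.

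ISG15 is a ubiquitin-like protein that is joined to other proteins after interferon signalling, USP18 removes it and dampens the receptor, and TRIM25 is a ligase that activates the RNA sensor RIG-I. Isg15 lay at 77.4, 76.6 and 31.3 CPM in the 15C4 libraries and at 11.2, 47.3 and 35.6 CPM in the IgG libraries. 15C4 1 and 15C4 2 exceeded all IgG libraries, while 15C4 3 lay below 2 of them, and the log2 fold change was 1.05 (SE 0.66). Usp18 lay at 94.6, 115 and 75.6 CPM against 30.9, 77.9 and 87.6 CPM (0.63, SE 0.50). For both genes IgG 1 was the lowest library. Trim25 lay at 25.1, 15.8 and 18.9 CPM against 12.4, 35.3 and 4.11 CPM, a wider range in IgG than in 15C4 (0.30, SE 0.88).

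The IFIT proteins bind viral RNA and block its translation, and their genes lie in a cluster on chromosome 19 (GRCm38), where 7111 bases separate Ifit2 from Ifit3 and 52139 bases separate Ifit3 from Ifit1. Ifit1 lay at 514, 219 and 97.1 CPM in the 15C4 libraries and at 41.5, 360 and 24.3 CPM in the IgG libraries. IgG 2 lay among the 15C4 values and the other IgG libraries below them all. The log2 fold change was 1.01 (SE 0.97), or 3.09 without IgG 2. Ifit3 lay at 239, 482 and 184 CPM against 50.4, 289 and 150 CPM (0.99, SE 0.63), or 0.46 without 15C4 2 and 1.67 without IgG 2. Its paralog Ifit3b shared 51.2% of the 50-base stretches of Ifit3 transcripts, so reads of the pair may have been split between them. Ifit2 lay at 158, 169 and 2.19 CPM against 46.0, 507 and 48.4 CPM, with 14 counts in 15C4 3 (-0.81, SE 1.30). Its fitted value turned to 1.24 without IgG 2. 15C4 3, the lowest library for Ifit2, held more Ifit1 and Ifit3 than IgG 1 or IgG 3.

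Among the antiviral enzymes, 5 of 7 had a fitted value above 0, with a median log2 fold change of 0.07. Rsad2 encodes viperin, which makes a chain-terminating nucleotide, and Cmpk2, its neighbour 12751 bases away on chromosome 12 and read in the opposite direction, encodes a nucleotide kinase. Rsad2 lay at 740, 494 and 304 CPM in the 15C4 libraries and at 185, 1605 and 346 CPM in the IgG libraries. Cmpk2 lay at 103, 55.8 and 22.7 CPM against 47.7, 123 and 14.2 CPM. Both genes were highest in IgG 2, then in 15C4 1 and in 15C4 2. The log2 fold change was -0.40 (SE 0.71) for Rsad2 and 0.02 (SE 0.80) for Cmpk2, and 0.99 for each without IgG 2. Adar, an enzyme that edits adenosine in double-stranded RNA, lay at 92.4, 38.3 and 31.9 CPM against 28.02, 39.1 and 18.9 CPM. In CPM of all counts 15C4 1 alone exceeded every IgG library, while 15C4 2 did so as well after TMM scaling and all 3 with DESeq2's size factors. The log2 fold change was 0.97 (SE 0.60), or 0.45 without 15C4 1. The antisense gene Chrnb2 covers 16.8% of Adar's exon length, and the library kit does not mark strand, so reads in this overlap cannot be told apart.

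The remaining enzymes differed little between the groups against their spread. Eif2ak2 encodes PKR, a kinase that halts translation on double-stranded RNA, and lay between 22.5 and 107 CPM (0.07, SE 0.59). Oas1a and Oasl2 belong to the oligoadenylate synthetase family, which senses the same kind of RNA. Oasl2 lay between 44.2 and 108 CPM (0.31, SE 0.50) and Oas1a between 10.1 and 40.9 CPM (0.39, SE 0.75). Oas1a shares 57.6% of its 50-base stretches with other transcripts, nearly all of Oas1g, so its value is uncertain. Isg20, an exonuclease, lay at 13.8, 12.6 and 12.4 CPM in the 15C4 libraries and at 15.3, 14.0 and 28.8 CPM in the IgG libraries. Its groups were separated, with 15C4 lower, in CPM of all counts but not after TMM scaling (-0.50, SE 0.74).

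The MX genes encode dynamin-like GTPases that trap viral particles, and C57BL/6 mice are known to carry a defective Mx1 allele. Mx1 lay at 84.3, 25.3 and 0.156 CPM in the 15C4 libraries and at 34.8, 178 and 7.80 CPM in the IgG libraries. In 15C4 3 the value rests on 1 count, and IgG 2 held the highest value. The log2 fold change was -0.99 (95% interval -4.43 to 2.44) and turned to 0.76 without IgG 2. Mx2 lay at 89.4, 30.04 and 20.5 CPM against 10.8, 41.9 and 84.1 CPM (0.05, SE 0.82), so that 15C4 1 and IgG 3 held about equal values at the top of their groups.

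PARP9 and DTX3L form a complex that joins ubiquitin to its targets, and PARP14 is a related ADP-ribosyltransferase. Parp9 and Dtx3l lie head to head on chromosome 16 and overlap by 682 bases. Dtx3l lay at 170, 108 and 62.7 CPM in the 15C4 libraries and at 68.4, 133 and 37.6 CPM in the IgG libraries. Parp9 lay at 134, 80.9 and 28.9 CPM against 61.2, 113 and 23.2 CPM. Both genes put the 6 libraries in one order, from 15C4 1 through IgG 2, 15C4 2, IgG 1 and 15C4 3 to IgG 3. Exons of Dtx3l cover 9.40% of the exon length of Parp9, so a part of their reads may be shared. Parp14 lay at 211, 187 and 66.2 CPM against 57.8, 209 and 31.8 CPM. The log2 fold changes were 0.57 (SE 0.55) for Dtx3l, 0.35 (SE 0.69) for Parp9 and 0.71 (SE 0.71) for Parp14.

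The last block holds effectors of several kinds. Xaf1, which opposes an inhibitor of cell death, lay at 322, 230 and 175 CPM in the 15C4 libraries and at 151, 132 and 219 CPM in the IgG libraries. IgG 3 alone among the IgG libraries exceeded a 15C4 library, and the log2 fold change was 0.60 (SE 0.36). Trim30a, which restrains inflammatory signalling, lay at 632, 477 and 161 CPM against 269, 370 and 349 CPM, with the highest and the lowest value both in 15C4 (0.41, SE 0.44). Ifi44 lay at 134, 178 and 45.5 CPM against 64.3, 174 and 13.1 CPM (0.59, SE 0.84). Ifi35 lay between 28.4 and 84.6 CPM (0.33, SE 0.53), and the antisense gene Gm11626 covers 16.8% of its exon length. Sp100, a component of nuclear bodies, lay between 42.1 and 149 CPM, with both ends in 15C4 (-0.07, SE 0.53).

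Per kilobase of annotated exon, which allows levels to be set side by side between genes, Ifi27 (273 CPM per kb, mean of the 6 libraries) and Bst2 (263 CPM per kb) led the list. Rsad2 at 141, Rtp4 at 135, Ifit3 at 133 and Samd9l at 119 CPM per kb followed. The lowest were Irf7 at 7.93, Adar at 5.11 and Trim25 at 3.23 CPM per kb. The ratio of the highest to the lowest library was 1.65 for Bst2 and 2.03 for Ifi27, against 231 for Ifit2 and 21.2 for Ifit1. The 2 genes at the top of the order by level thus varied little between libraries.

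Summed over the 31 genes, the level was 6540, 5644 and 3610 CPM in 15C4 1, 2 and 3 and 2666, 6706 and 3476 CPM in IgG 1, 2 and 3. Each group held high and low libraries, and IgG 2 was the highest of all. The IFIT genes summed to 911, 869 and 283 CPM against 138, 1156 and 222 CPM, which is the same pattern on a wider scale. The membrane and traffic genes summed to 825, 1063 and 1090 CPM against 649, 862 and 1070 CPM, so 15C4 3 was low for the first block and high for the second. After TMM scaling, 11 genes (35.5%) had their highest value in 15C4 1, against 19.6% of all tested genes, and 8 (25.8%) in IgG 2, against 16.3%. In 15C4 2 it was 6 genes (19.4%), against 15.7%, and in 15C4 3 it was 2 (6.45%), against 23.7%. No gene of the list was highest in IgG 1, against 9.17% of all tested genes. The lowest value was in IgG 3 for 11 genes (35.5%), against 14.0% of all tested genes, and in IgG 1 for 9 (29.0%), against 5.81%. It was in 15C4 3 for 7 genes (22.6%), against 33.7%. A tie for the lowest value, as between libraries at 0, was given to the first of them in the order 15C4 1 to 3, IgG 1 to 3, which touches the shares over all genes but none of the 31.

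**Figure D4:**
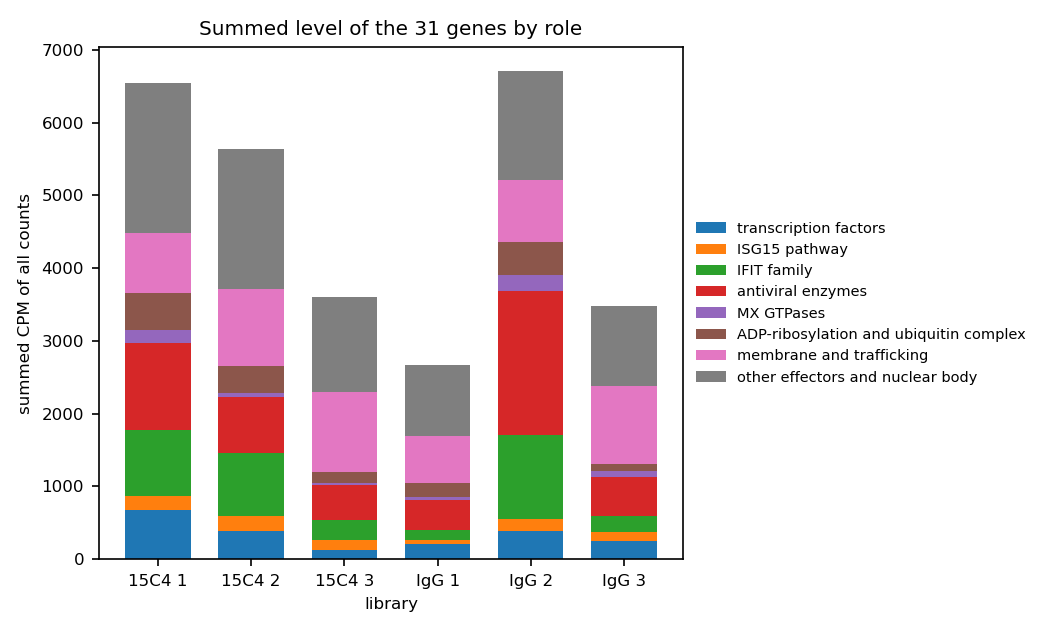
Summed CPM of all counts of the 31 genes in each library (bars), divided by role (colours). 15C4 1 and IgG 2 reach 6540 and 6706 CPM, and IgG 1 is the lowest at 2666 CPM.

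**Figure D5:**
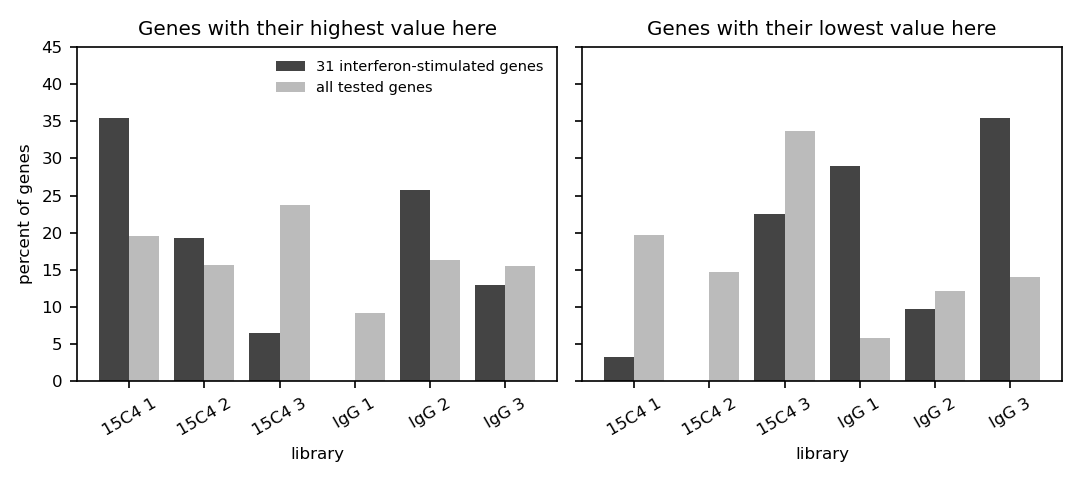
Percent of the 31 genes (dark) and of all 11144 tested genes (light) whose highest value (left) or lowest value (right) lies in each library, after TMM scaling. 15C4 1, 15C4 2 and IgG 2 hold more of the genes' highest values than of all tested genes', and 15C4 3, IgG 1 and IgG 3 hold fewer. IgG 1 and IgG 3 hold more of their lowest values.

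IgG 1, with the lowest sum of the list, had the highest sum of T and NK cell markers. In that library Gzma, which encodes a granzyme of killer lymphocytes, led them at 178 CPM against at most 4.56 CPM elsewhere. Ccl5, a chemokine that interferon also induces, had a different order, with 124 CPM in IgG 1, 214 CPM in 15C4 1 and at most 19.7 CPM elsewhere. IgG 1 also held 84 counts of Ifng, which encodes interferon gamma, where 15C4 1 held 3, IgG 2 held 5 and the other libraries 0. IgG 3, with the lowest value of 11 genes, had the least pan-endothelial transcript, with Cdh5 at 46.3 CPM against 505 to 1240 CPM in the others. The part of these differences in the levels of the list was not tested.

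The other genes of the pathway were taken from lists of 123 genes, of which 90 passed the filter. By edgeR 0 of them passed the test in either direction, where it called 0% of all tested genes. At an unadjusted p under 0.05 by edgeR there were 5, against 2.58% of all tested genes. DESeq2 called 1, Ifih1, where it called 0.252% of the genes with an adjusted p. Of these 90, 59 had a fitted value above 0, against 50.7% of all tested genes. With 1 library left out, this count was 47 without IgG 3 and 48 without either 15C4 1 or 15C4 2. It was 58 without IgG 1, 64 without 15C4 3 and 69 without IgG 2. In these fits 46.7% to 52.0% of all tested genes lay above 0. The filter was run anew in each, so the number tested can differ from 90. Of the 21 interferon ligands, 16 had 0 counts in every library. Ifnb1, which encodes interferon beta, had 31 counts in 15C4 2 and 0 in the other libraries. Among the receptors and kinases, the smallest unadjusted p belonged to Il10rb, a receptor subunit shared with type III interferon (0.42, SE 0.42), and Jak1 (-0.36, SE 0.38).

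Among the sensors that start interferon production, 6 of 11 tested genes lay above 0 (median 0.10). Ifih1, which encodes the RNA sensor MDA5 and is itself induced by interferon, lay at 156, 208 and 165 CPM in the 15C4 libraries and at 61.6, 63.9 and 54.1 CPM in the IgG libraries. The groups were well separated, with a log2 fold change of 1.66 (SE 0.36, unadjusted p = 0.00155, adjusted p = 1.00 by edgeR). DESeq2 gave it an adjusted p of 0.0112, and the authors' deposited table lists 0.00214. For Ifih1, IgG 2 lay with the other IgG libraries, whereas it was the highest IgG library for Ifit1 and Rsad2. Tlr3, a sensor in endosomes, had 0.53 (SE 0.37). After TMM scaling the 15C4 libraries lay wholly above the IgG libraries for 2 of the 11, where 3.58% of all tested genes did so. They lay wholly below for 1, Irf3 (-0.78, SE 0.68), where 5.92% did so. The negative regulators had 4 of 8 genes above 0 (median -0.18), with Ptpn2 at 0.54 (SE 0.48) and Ptpn11 at -0.64 (SE 0.57).

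A further 57 interferon-stimulated genes outside the list gave 34 of 50 tested genes above 0 (median 0.29). The smallest unadjusted p belonged to Trim12c, at 57.7, 41.2 and 44.9 CPM against 17.0, 19.8 and 9.60 CPM (1.72, SE 0.59), and Phf11d, at 255, 247 and 171 CPM against 137, 121 and 148 CPM (0.81, SE 0.32). The 15C4 libraries lay above the IgG libraries for both. After TMM scaling this held for 5 of the 50 tested genes, against 3.58% of all tested genes. Beside Phf11d these were all Trim genes: Trim12a, Trim12c, Trim30d and Trim34a. Whether related genes shared reads was not checked for these, so the 5 may not be separate observations. The 15C4 libraries lay wholly below for 1, Slfn9 (-2.27, SE 1.17), against 5.92%. Of the genes led by type II interferon, 9 of 11 lay above 0 (median 0.46), with Igtp at 1.17 (SE 0.47) and Irgm1 at 0.75 (SE 0.46), both GTPases that act on parasite vacuoles.

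Other fits of the same counts gave no call among the 31 genes. DESeq2 called 0 of them, with a smallest adjusted p of 0.790 for Samd9l, where it called 0.252% of the genes with an adjusted p, and limma-voom called 0. In the authors' deposited table, 0 of the 31 genes had an adjusted p under 0.05, where 3.59% of its genes did. The smallest among the 31 in the authors' deposited table was 0.172, again for Samd9l, with a log2 fold change of 1.02 after its sign was turned to 15C4 over IgG. The authors' deposited table put 25 of the 31 genes on the 15C4 side.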

How the data were processed

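The authors deposited whole-number counts per gene symbol for each library. Libraries were made from PCR-amplified cDNA with Nextera XT, per the labels' protocols, a kit that does not mark strand. The tools named in the submitters' processing notes are featureCounts, DESeq2, STAR 2.5b and fastp, beside builds mm10 and mm9. Which build and annotation the counts rest on was not given in the sources used here. Per the file headers, a table of the whole series adds normalised values (a score, rounded), a fold change, a log2 fold change of IgG over 15C4 and the authors' p-values. All 186 counts of the 31 genes in it equalled the single files.

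Counts were tested across all genes with edgeR 4.0.16 (R 4.3.3), with TMM factors, filterByExpr (minimum count 10, total 15), treatment as the only term and Benjamini-Hochberg adjustment at 0.05, after a check on simulated data. The simulated data had less spread than these data and larger changes than those fitted for the 31 genes. That check therefore does not show what the test could find here. SE is the absolute log2 fold change over the square root of the F statistic. Sizes in brackets after a gene's levels are log2 fold changes of 15C4 over IgG. DESeq2 1.42.0 and limma-voom (limma 3.58.1) were alternatives, beside other normalisations, filters, a replicate block and leaving out each library. Positions and exon lengths are from GENCODE M21 (GRCm38). The 31 genes and all lists were chosen with earlier results of these data known. All 31 genes are named, with the 2 genes of smallest unadjusted p per pathway list. The top gene of a marker list is named where the text speaks of that cell type. Genes named beyond this rule (Ifnb1, Ifng, Gzma, Ifit3b, Oas1g, Irf3, Slfn9, Trim12a, Trim30d, Trim34a, and overlapping genes) were chosen after their values were seen. The common biological coefficient of variation was 0.861, and counting intervals would cover counting error only.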

Additional observations from a re-analysis of the deposited data

How the results depend on the processing

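No setting called any of the 31 genes (other factors, no filter, a mean count of at least 50, DESeq2, limma-voom, the replicate block, or each library left out), and the fitted values above 0 stayed between 21 and 27 of 31. The groups did not overlap for 4 genes with DESeq2 size factors (9.48% of all tested genes), and for 2 to 15 with 1 library left out: 15 without IgG 2 (15.9% of all), 9 without 15C4 3 (20.4%), 7 without IgG 3 (17.2%), 3 without 15C4 1 (24.7%), 3 without 15C4 2 (21.7%) and 2 without IgG 1 (15.5%). Genes at an unadjusted p under 0.05 numbered 0 to 5 with 1 library left out: none without IgG 1 (2.01% of all genes) or IgG 3 (2.45%), Samd9l without 15C4 2 (5.38%), Rtp4 and Samd9l without 15C4 1 (5.71%), Irf1, Samd9l and Trim30a without 15C4 3 (4.58%), and Stat2, Parp14, Ifit3, Ifit1 and Samd9l without IgG 2 (1.91%). With 1 of the other libraries left out, genes highest in IgG 2 numbered 8 to 13, the latter without 15C4 1; without IgG 2 there is no such count. The cause was not tested.

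The sign of several genes turned with the fit. With upper quartile factors the log2 fold change was -0.052 for Cmpk2, -0.013 for Irf9, -0.039 for Mx2 and -0.0054 for Eif2ak2, and with library totals -0.028 for Cmpk2. limma-voom gave -0.21 for Irf1, 0.069 for Rsad2 and -0.012 for Mx2. With 1 library left out, the log2 fold change ran from -0.49 to 0.99 for Cmpk2, -0.34 to 0.48 for Eif2ak2, -0.28 to 0.35 for Ifi27, -1.31 to 1.24 for Ifit2, -0.61 to 1.15 for Irf1, -0.27 to 0.72 for Irf9, -2.38 to 0.76 for Mx1, -0.73 to 0.89 for Mx2, -0.11 to 0.97 for Parp9, -0.85 to 0.99 for Rsad2, -0.79 to 0.22 for Sp100 and -0.14 to 1.34 for Trim25.

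Library numbers do not show pairs: deviations of same-numbered libraries correlated at -0.04, 0.06 and 0.10. The median over all tested genes was -0.15 with the replicate block and -0.14 with limma-voom. With the replicate block, 2 genes (Ifit3 and Samd9l) had an unadjusted p under 0.05, and the sign turned for Irf1 (-0.43), Rsad2 (0.11) and Eif2ak2 (-0.10). With 1 or 14 counts, Mx1 and Ifit2 in 15C4 3 are set by few reads, which are amplified and without molecular identifiers. With 3 libraries a group and this spread, a 2-fold higher level lay within the 95% interval of 30 of the 31 genes.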
